A study of Mus musculus with 8 samples.

Results

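The Reg3 genes Reg3a, Reg3b, Reg3d and Reg3g were followed through the transcriptome of colonic intestinal epithelial cells (IECs) of mice that lack Efhd2 in the intestinal epithelium. The 4 genes were taken by name from the table for day 7 after dextran sodium sulfate (DSS), whose 128 genes were selected on the difference in normalized count between the genotypes on that day. No Reg3 gene was among the 309 genes listed on day 0. Across both days 428 genes were listed, 9 of them on both. Since the contrast of genotypes on day 7 chose the members, their genotype differences are given here as a description with no test. The spread between libraries of one genotype also enters that selection, through the authors' adjusted p-value, so it too is only described. The ratios between the 4 genes and their sequences were not used in choosing them.

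IECs were isolated from the colons of Efhd2f/f Vil1cre/+ mice and of Efhd2f/f mice, either before any DSS (day 0) or at day 7 of a course that began with DSS in the drinking water, and each genotype had 2 libraries per day, 8 in all. In Efhd2f/f Vil1cre/+ mice, which the labels call Efhd2-deficient, Cre recombinase is driven by the promoter of Vil1, the villin gene that is active in intestinal epithelium, and removes a floxed exon of Efhd2. Efhd2f/f mice carry the same floxed alleles without Cre and are labelled wildtype, so that the presence of Cre and the loss of Efhd2 cannot be told apart. The labels give no age or DSS dose (the methods describe young adult mice that were back on plain water for the last day), and do not say whether a library came from a single mouse, so the spread between libraries may be technical. The IEC fraction was released with EDTA and strained, with no sorting step given, and it can hold other cells. In such bulk samples a change in the number of cells of a type and a change in RNA per cell cannot be told apart. Efhd2 itself was not listed on day 7. On day 0 its normalized count was 556 and 713 in the Efhd2f/f Vil1cre/+ libraries and 2663 and 2686 in the Efhd2f/f libraries. The tables hold only listed genes, so the depth of a library is unknown. Of 12 epithelial marker genes none was listed on either day, so the labelled cell type could not be checked by their levels.

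Reg3 proteins are small secreted C-type lectins that epithelial cells of the gut release towards the lumen, where they bind bacterial surfaces and keep bacteria away from the mucosa. Reg3g acts mainly on Gram-positive bacteria and Reg3b also on Gram-negative bacteria, while the mouse proteins Reg3a and Reg3d are less well studied. In healthy mice the genes are most active in the small intestine, and in the colon their RNA is known to rise with infection or injury through interleukin-22 and the transcription factor Stat3.

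The 4 genes lie in a single cluster on chromosome 6. In the GRCm38 coordinates of the deposited tables it runs from 78370657 to 78468872, which is 98.2 kb, and GENCODE M21 annotates 6 genes in it, all of the Reg family. Reg3b (ENSMUSG00000071356, 78370657 to 78373466, plus strand) comes first. It is followed by Reg3d (ENSMUSG00000068341, 78375874 to 78378865, minus strand) and Reg3a (ENSMUSG00000079516, 78380709 to 78383827, plus strand). Reg2 and Reg1, 2 related genes that were not listed on day 7, stand between Reg3a and Reg3g (ENSMUSG00000030017, 78466269 to 78468872, minus strand). The pair with the most RNA, Reg3b and Reg3g, therefore marks the outer ends of the cluster. Reg3d and Reg3a, which had far less RNA, are the next 2 genes after Reg3b. Reg4, the family member outside the cluster, was not listed either, so 4 of 7 Reg genes were.

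**Figure D1:**
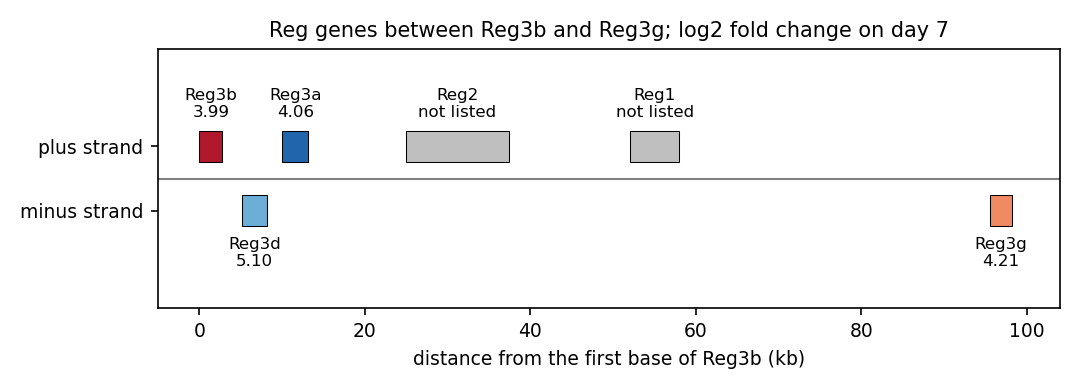
The 6 Reg genes of the cluster drawn to scale as boxes, on the upper row for the plus strand and on the lower row for the minus strand, against distance in kb from the first base of Reg3b. Under each name stands the log2 fold change of Efhd2f/f Vil1cre/+ over Efhd2f/f on day 7, which was between 3.99 and 5.10 for the 4 Reg3 genes, while Reg2 and Reg1 were not listed.

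The windows around the start sites of the 4 genes are shown as a description of their sequence. Each is the RefSeq sequence on GRCm38.p6, written 5′ to 3′ on the strand of the gene, with 250 bases before the RefSeq start and 50 bases from it on. The RefSeq start is within 2 bases of the first base of the gene in the tables for Reg3a, Reg3d and Reg3g. For Reg3b it lies at 78370885, which is 228 bases inside the gene as the tables give it and 24 bases after the start of its main GENCODE transcript, so the distances below depend on which start is taken. Capitals mark TATAAA at the place of a TATA box, 35 to 20 bases before the start, and TTCNNNGAA, the letters bound by STAT factors.
Reg3b, chr6:78370635-78370934, plus strand: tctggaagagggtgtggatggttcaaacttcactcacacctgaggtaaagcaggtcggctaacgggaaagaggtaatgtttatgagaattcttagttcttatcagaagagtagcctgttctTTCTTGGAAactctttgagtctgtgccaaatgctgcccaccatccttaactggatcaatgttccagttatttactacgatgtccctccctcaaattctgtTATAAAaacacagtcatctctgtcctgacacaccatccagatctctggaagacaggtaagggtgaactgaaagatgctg
Reg3g, chr6:78468825-78469124, minus strand: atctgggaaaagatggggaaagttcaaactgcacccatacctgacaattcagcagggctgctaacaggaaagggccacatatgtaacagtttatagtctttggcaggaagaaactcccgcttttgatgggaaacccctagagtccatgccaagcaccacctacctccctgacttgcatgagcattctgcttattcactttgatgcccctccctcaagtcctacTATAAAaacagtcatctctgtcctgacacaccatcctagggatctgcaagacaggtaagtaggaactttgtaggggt
Reg3a, chr6:78380459-78380758, plus strand: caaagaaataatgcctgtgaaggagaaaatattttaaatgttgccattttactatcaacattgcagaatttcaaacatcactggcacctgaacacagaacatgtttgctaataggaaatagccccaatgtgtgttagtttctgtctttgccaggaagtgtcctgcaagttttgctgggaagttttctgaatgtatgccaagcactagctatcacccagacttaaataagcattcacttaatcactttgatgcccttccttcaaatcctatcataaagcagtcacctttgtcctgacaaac
Reg3d, chr6:78378816-78379115, minus strand: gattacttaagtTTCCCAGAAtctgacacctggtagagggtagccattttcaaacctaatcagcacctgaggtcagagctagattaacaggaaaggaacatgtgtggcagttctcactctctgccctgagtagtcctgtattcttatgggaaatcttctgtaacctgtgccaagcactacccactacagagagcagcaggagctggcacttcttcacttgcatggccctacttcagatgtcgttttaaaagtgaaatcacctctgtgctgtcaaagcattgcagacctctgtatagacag

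Reg3b and Reg3g both had TATAAA at the place of a TATA box, beginning 29 and 27 bases before the RefSeq start. No TATAAA stood at that place, or elsewhere in the window, in Reg3a or Reg3d. That absence holds for these exact letters only. Variants were not searched, such as cataaa after the RefSeq start of Reg3a and tttaaa just before that of Reg3d. The place also depends on the start taken. Counted from the main GENCODE start of Reg3b, 24 bases upstream, its TATAAA would lie outside that place. Reg3g also held TATAAA on the opposite strand, 161 bases before the start. Of 32851 mouse promoter windows of this length, 1.84% held TATAAA at the place of a TATA box and 13.6% held it anywhere on either strand. The STAT letters TTCNNNGAA were found in Reg3b, 129 bases before the start, and in Reg3d, 238 bases before it, and in 8.3% of all windows. No such match was in the windows of Reg3a and Reg3g. The C/EBP letters TTGCNNAA were matched once, in Reg3a, 190 bases before the start (10.8% of all windows), and the NF-kappaB motif once, in Reg3g, 123 bases before it (4.51% of all windows). The AP-1 letters TGANTCA had no match in the 4 windows (7.81% of all windows). Both strands were searched and none of these matches overlapped that of another motif. A match of letters is a description of the window and says nothing of binding. Whether the letters bear on the levels of the genes or on the ratios between them was not tested.

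Across the start sites the windows of Reg3b and Reg3g shared a run of 29 identical bases, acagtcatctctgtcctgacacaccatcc, which begins shortly after the TATA letters and crosses the start. Between the other pairs of windows the longest identical run was 10 to 14 bases. Over the whole window this pair was not set apart, with an identity of 71.4% against 64.4% to 73.9% for the others, the highest being Reg3a with Reg3g.

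The coding sequences of the 4 genes are 522 to 525 bases long, in a main transcript of 6 exons each. They were 66.6% to 76.5% identical, with Reg3a and Reg3b (76.5%) and Reg3b and Reg3g (76.4%) the closest pairs and Reg3d the most distant from the others. The longest identical stretch between any 2 of them is shown because a read that lies wholly within it could be counted for either gene. It is the run of 35 coding bases that begins at coding base 26 of both Reg3b and Reg3g:
Reg3b and Reg3g: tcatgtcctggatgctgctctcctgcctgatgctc
No stretch of 50 bases was shared between the main transcripts of any 2 Reg3 genes. Likewise none of their 722 to 776 windows of 50 bases was found in another gene among 141767 annotated transcripts. The ratio of Reg3b to Reg3a, in normalized counts, differed 6.09-fold between libraries (275 to 1675), and that of Reg3b to Reg3d differed 9.08-fold (266.5 to 2419). Whether reads of a Reg3 gene were counted for another was not tested.

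On day 7 all 4 Reg3 genes were higher in both Efhd2f/f Vil1cre/+ libraries than in both Efhd2f/f libraries, which was so for 116 of the 128 listed genes (90.6%), while 11 (8.59%) were lower in both. As the genes were listed for a difference on this contrast, nothing is read from that count. The genes fell into an abundant pair, Reg3b and Reg3g, about 16- to 19-fold higher, and a scarce pair, Reg3a and Reg3d, whose folds of means were larger and far less certain. The libraries are named here by the numbers their columns carry, 65 and 71 for Efhd2f/f Vil1cre/+ and 67 and 68 for Efhd2f/f.

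Reg3b, the lectin with the most RNA, had a normalized count of 170461 in library 65 and 274783 in library 71, against 13675 in library 67 and 13549 in library 68. The 2 Efhd2f/f libraries were thus nearly equal, while the Efhd2f/f Vil1cre/+ libraries differed 1.61-fold and lay far above them. The means were 222622 ± 73767 and 13612 ± 89.6 (SD, n = 2 each), a 16.4-fold difference, and the lowest Efhd2f/f Vil1cre/+ library was 12.5-fold above the highest Efhd2f/f library. On the scale of log2(normalized count + 1) the limma estimate was 3.99 with a standard error of 0.763.

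Reg3g, which is best known for binding the peptidoglycan of Gram-positive bacteria, followed the same order in the Efhd2f/f Vil1cre/+ libraries. Its normalized count was 59257 in library 65 and 96445 in library 71, against 4633 in library 67 and 3612 in library 68. The genotypes did not overlap, and the difference within each genotype was below 1.7-fold. The means were 77851 ± 26296 and 4122 ± 722 (SD, n = 2 each), an 18.9-fold difference, with a limma log2 fold change of 4.21 and a standard error of 0.768.

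Reg3a had low values apart from library 71, which stood out. Its normalized count was 102 in library 65 and 999 in library 71, against 11.1 in library 67 and 29.8 in library 68. Library 71 was 9.82-fold above library 65, although both carry the same genotype, and library 65 was only 3.42-fold above library 68. The means were 550 ± 635 and 20.4 ± 13.2 (SD, n = 2 each), so the SD in Efhd2f/f Vil1cre/+ was larger than the mean, and the fold of means, 27.0, rests on library 71. The limma log2 fold change was 4.06 with a standard error of 1.06, and it was 2.42 without library 71 and 5.70 without library 65.

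Reg3d showed the same unevenness in the Efhd2f/f Vil1cre/+ libraries. Its normalized count was 78.4 in library 65 and 1031 in library 71, against 9.56 in library 67 and 5.60 in library 68. Library 71 was 13.2-fold above library 65, and the genotypes still did not overlap. The means were 555 ± 674 and 7.58 ± 2.80 (SD, n = 2 each), and the fold of means of 73.2 again rests on library 71. Set against the Efhd2f/f mean, library 65 alone was 10.3-fold higher and library 71 alone 136-fold higher. The limma log2 fold change was 5.10 with a standard error of 1.10, and it was 3.25 without library 71 and 6.95 without library 65. Low values of the libraries lay near multiples of about 0.857 to 1.11, so the Efhd2f/f values of Reg3d stand close to the lower end of what these libraries resolve.

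**Figure D2:**
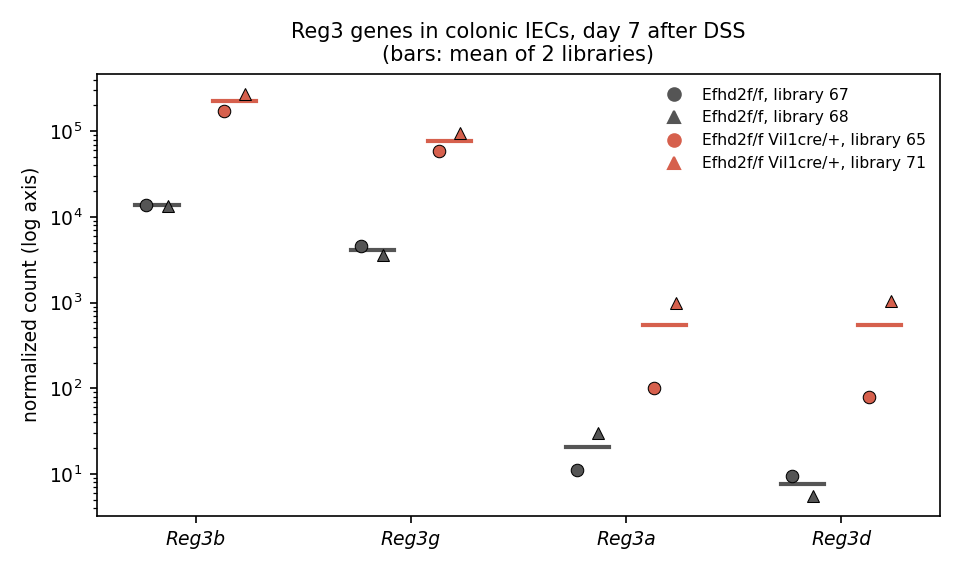
Normalized counts of the 4 Reg3 genes on a log axis, with 1 point per library (circles for libraries 67 and 65, triangles for 68 and 71) and bars at the mean of the 2 libraries of a genotype. Reg3b lies at 13675 and 13549 in the Efhd2f/f libraries and at 170461 and 274783 in Efhd2f/f Vil1cre/+, and for Reg3a and Reg3d library 71 (999 and 1031) is far above library 65 (102 and 78.4).

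Among the 128 listed genes the limma log2 fold changes of the 4 genes ranked 3 (Reg3d), 13 (Reg3g), 16 (Reg3a) and 17 (Reg3b), where the median was 2.54. With limma and Benjamini-Hochberg adjustment over the 128 genes, 99 (77.3%) passed an adjusted p of 0.05 with a log2 fold change above 1 and 10 (7.81%) with one below -1. When every library was brought to the same listed total, 5 passed as higher and 7 as lower. With 2 libraries a genotype an exact two-sided permutation test cannot go below p = 0.333. In size of difference the Reg3 genes were thus within the upper part of the list, and by level Reg3b and Reg3g stood at its far end.

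**Figure D3:**
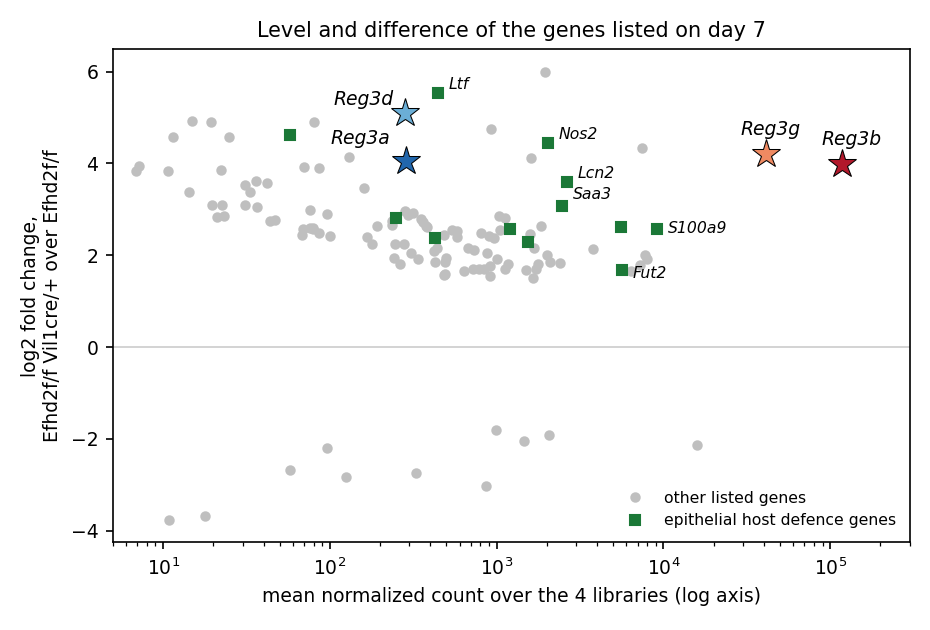
Mean normalized count over the 4 day 7 libraries (log axis) against the limma log2 fold change of Efhd2f/f Vil1cre/+ over Efhd2f/f, with 1 point per listed gene, stars for the Reg3 genes and squares for the other epithelial host defence genes. Reg3b and Reg3g have the highest means of all 128 genes, and Reg3a and Reg3d have log2 fold changes of 4.06 and 5.10 at far lower levels.

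Levels of different genes were compared per kilobase of the gene length given in the tables. In normalized counts per kb, Reg3b ranked 1 of 128 in libraries 65, 71 and 67 and 2 in library 68, where Cyp2c55, a cytochrome P450 gene, was higher (20709 against 11864). Reg3g ranked 2 in both Efhd2f/f Vil1cre/+ libraries, and 5 and 7 in Efhd2f/f. Reg3a ranked 80 in library 65 and 28 in library 71, and Reg3d ranked 86 and 26. In the Efhd2f/f libraries Reg3a ranked 93 and 79 and Reg3d 94 and 105.

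The 4 genes together made up 63.8% and 64.1% of the summed normalized counts per kb of the listed genes in libraries 65 and 71, and 34.0% and 20.4% in libraries 67 and 68. Without the length the shares were 55.9% and 60.8% against 25.5% and 14.1%. These are shares of the listed genes and not of the library. More than 99% of the family sum came from Reg3b and Reg3g in every library. The summed normalized count of the 4 genes was 17.0-fold higher in Efhd2f/f Vil1cre/+ than in Efhd2f/f by the means, and that of the 124 other listed genes 2.67-fold higher.

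**Figure D4:**
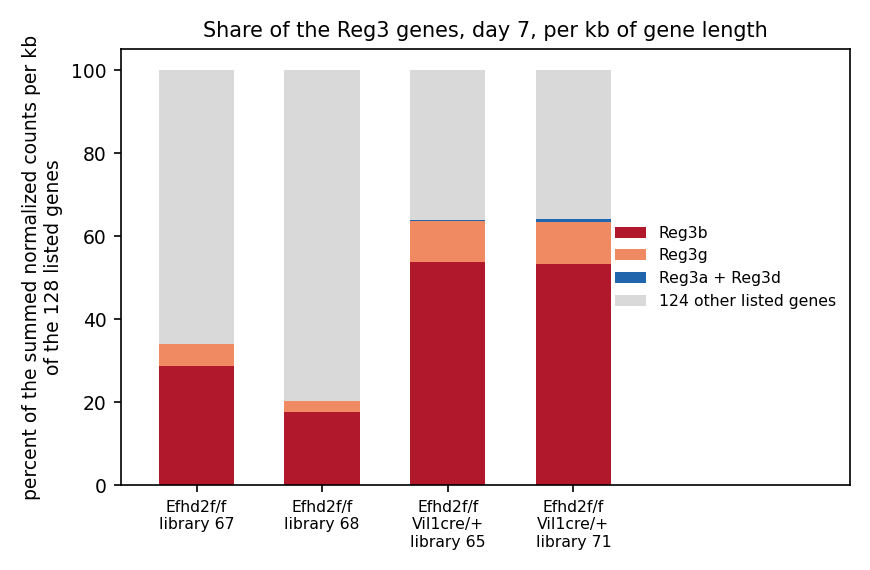
Stacked bars of the percent that Reg3b, Reg3g, Reg3a with Reg3d, and the 124 other genes take of the summed normalized counts per kb of the listed genes, in each day 7 library. The Reg3 genes take 34.0% and 20.4% in the Efhd2f/f libraries and 63.8% and 64.1% in the Efhd2f/f Vil1cre/+ libraries, nearly all of it Reg3b and Reg3g.

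The ratio of Reg3b to Reg3g within a library does not depend on how a library was scaled. Per kb of the listed gene length it was 5.33 in library 65, 5.27 in library 71, 5.47 in library 67 and 6.94 in library 68, so it differed 1.32-fold over the 4 libraries while Reg3b itself differed about 20-fold. The listed length of Reg3g, 2114 bases, is much longer than its main transcript of 771 bases. Per kb of the main transcript, a length chosen after the data were seen, the ratios were 2.83, 2.81, 2.91 and 3.69. Reg3b was the higher of the pair in every library under both lengths.

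The ratio of Reg3a to Reg3d behaved differently. Per kb it was 1.23 in library 65, 0.919 in library 71 and 1.10 in library 67, and 5.04 in library 68, where Reg3a was higher than in library 67 and Reg3d lower. These 2 neighbouring genes were thus at about the same level in 3 of the 4 libraries. In the Efhd2f/f libraries their values are low, and whether the fourth ratio lies beyond sampling error could not be tested without counts.

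Within a genotype the 2 pairs also differed. Between the Efhd2f/f Vil1cre/+ libraries, the log2 ratio of library 71 over 65, on log2(normalized count + 1), was 0.69 for Reg3b and 0.70 for Reg3g, which is inside the middle of the listed genes (quartiles -0.30 and 1.03, median 0.32). It was 3.28 for Reg3a and 3.70 for Reg3d, ranks 7 and 5 of 128. Between the Efhd2f/f libraries, the log2 ratio of library 68 over 67 was -0.01 for Reg3b, -0.36 for Reg3g and -0.68 for Reg3d, where the median of the listed genes was 0.88 and only 23 of 128 were below 0. Reg3a, at 1.35, was above that median. Reg3b, Reg3g and Reg3d were therefore among the few listed genes that were not higher in library 68.

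Library 71 also differed in its markers of neutrophils. Of 25 neutrophil markers 16 were listed, and all 16 were higher in library 71 than in library 65, with a median log2 ratio of 1.68. Among all 128 listed genes 83 were higher in library 71, with a median of 0.32. Their summed normalized count was 23784 in library 65 and 71583 in library 71, against 4772 and 8189 in libraries 67 and 68, a 7.36-fold difference between the genotype means. S100a9, a neutrophil calcium-binding protein with the highest mean of these markers, stood at 10154 and 21631 in libraries 65 and 71, against 2125 and 2905. S100a8 stood at 4516 and 15016 against 1038 and 1752, and Lcn2 at 2356 and 7498 against 241 and 501. S100a9, S100a8 and Lcn2 are also on the list of epithelial host defence genes, and which cells their RNA came from was not tested. Stfa2 was listed at 0 in both Efhd2f/f libraries. The listed neutrophil markers, like Reg3a and Reg3d, were thus higher in library 71 than in library 65. They were also higher in both Efhd2f/f Vil1cre/+ libraries than in both Efhd2f/f libraries. That held for 90.6% of all listed genes, so nothing is read from it. Reg3b and Reg3g were 1.61- and 1.63-fold higher in library 71 than in library 65, and the summed neutrophil markers 3.01-fold. The part of neutrophil RNA in the Reg3 values was not tested.

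The listed markers of monocytes, macrophages and red blood cells were also higher in both Efhd2f/f Vil1cre/+ libraries, as were 90.6% of all listed genes. Their median log2 fold change was 2.09 for the monocyte and macrophage markers and 2.28 for those of red blood cells. For all listed genes it was 2.54. The 5 listed of 21 monocyte and macrophage markers summed to 16245 and 14795 in libraries 65 and 71 and 2967 and 5145 in 67 and 68, with Cd14 the highest (11964 and 13046 against 2458 and 4394). Of these 5 markers 4 were lower in library 71 than in library 65, with a median log2 ratio of -0.68, so the nearly equal sums rest on Cd14. The 4 listed of 6 red blood cell markers summed to 4139 and 3992 against 562 and 1344, with Hba-a1 the highest. None of the 17 T cell and innate lymphoid markers, 10 B and plasma cell markers or 28 pancreatic acinar markers was listed on day 7. However, 7 immunoglobulin genes were, which are products of B and plasma cells and were not on that marker list (they were picked out after their values were seen). All 7 were higher in both Efhd2f/f Vil1cre/+ libraries, as were 90.6% of all listed genes. Their summed normalized counts were 480 and 867 against 64.7 and 64.3, and the lymphocyte cytokines Il17a and Il17f were listed as well. Of 18 small intestine and Paneth markers only Defa24 was, at 0 in both Efhd2f/f Vil1cre/+ libraries and 40.1 and 3.52 in Efhd2f/f. The part of these cells in the Reg3 values was not tested.

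**Figure D5:**
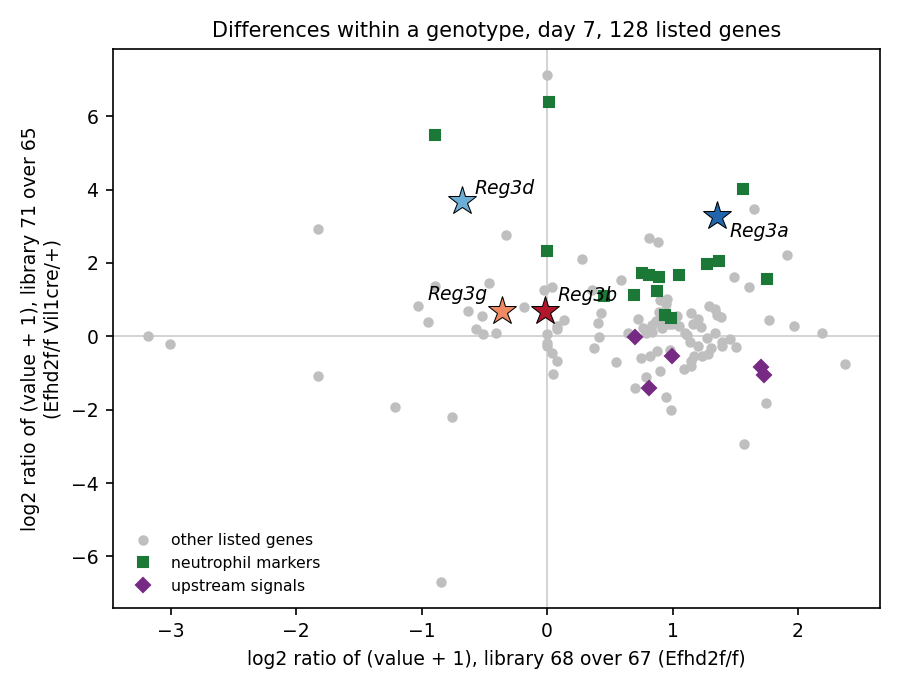
For each of the 128 listed genes, the log2 ratio of (normalized count + 1) between the 2 Efhd2f/f libraries (x axis, library 68 over 67) and between the 2 Efhd2f/f Vil1cre/+ libraries (y axis, library 71 over 65), with stars for the Reg3 genes, squares for neutrophil markers and diamonds for upstream signals. Reg3a and Reg3d lie at 3.28 and 3.70 on the y axis and Reg3b and Reg3g near 0.70, while all 16 neutrophil markers lie above 0 and all 5 upstream signals below 0. Of all 128 listed genes 83 lie above 0 on that axis and 44 below.

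Which listed genes had the profile most like each Reg3 gene over the 4 libraries was measured as the root mean square difference of log2(normalized count + 1), each gene centred on its own mean. Reg3b and Reg3g differed by 0.16 from each other and by 1.04 to 1.22 from Reg3a and Reg3d, which differed by 0.90 from each other. Nearest to Reg3a were Abca13, an ABC transporter (0.15), I830127L07Rik (0.38) and Chil3, a chitinase-like protein of myeloid cells (0.43). Abca13 stood at 26.5 and 306 in libraries 65 and 71 and 2.46 and 9.86 in 67 and 68, so it was likewise highest in library 71. Nearest to Reg3d were Stfa2 (0.55), Ifitm6 (0.66) and Camp, the gene of the antimicrobial peptide cathelicidin (0.68), all 3 higher in library 71.

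Nearest to Reg3b were Gm7457 (0.07), Cyp11b1 (0.31) and Bcl2l15 (0.31), and nearest to Reg3g were Gm7457 (0.22), Ighg2c (0.24) and Ighv1-34 (0.32), the last 2 immunoglobulin genes. Gm7457, Cyp11b1 and Ighv1-34 were at 0 in both Efhd2f/f libraries and at most 23.6 elsewhere, so their likeness depends on the pseudocount. With a pseudocount of 10, 2 of the 3 nearest genes were shared for Reg3a, 1 for Reg3d, 1 for Reg3g and 0 for Reg3b.

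Of 28 genes of the signals known to act upstream of Reg3 genes, 5 were listed on day 7, and 4 of them were called higher in Efhd2f/f Vil1cre/+ by limma with adjustment over the 128 genes, beside 77.3% of all listed genes. Their median log2 fold change was 2.52, beside 2.54 for all listed genes. They were Il17a and Il17f, interleukins of lymphocytes that act on epithelium, Il1a, an alarmin of injured cells, and Socs3, a feedback inhibitor that Stat3 induces. Osm, a cytokine of the interleukin-6 family, had 1401 and 970 against 251 and 503 and did not pass (adjusted p = 0.0573, limma). Il22, Il6, Stat3, Il1b and Tnf were not listed, so their levels were not analysed here.

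Il17a had a normalized count of 77.3 in library 65 and 37.0 in library 71, against 1.61 and 7.65 in libraries 67 and 68. Il17f had 39.6 and 14.4 against 0.820 and 2.19, and Il1a 1241 and 695 against 88.7 and 292. Socs3 was alike in both Efhd2f/f Vil1cre/+ libraries, with 6118 and 6081 against 1093 and 1774. In all 5 signals library 71 was below library 65, by 0.01 (Socs3) to 1.40 on the log2 scale, as in 44 of the 128 listed genes. All 4 Reg3 genes were higher in library 71, as were 83 of the 128. Between the Efhd2f/f libraries all 5 signals and Reg3a were higher in library 68, as were 99 of the 128 listed genes. Reg3g and Reg3d were lower there, and Reg3b was nearly equal in both, as Socs3 was in libraries 65 and 71. With 2 libraries a genotype these orders were not tested.

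Of 33 other genes of epithelial host defence, 12 were listed on day 7, and 11 were called higher and 0 lower by limma, beside 77.3% and 7.81% of all listed genes. The median log2 fold change was 2.71, beside 2.54 for all listed genes and 3.99 to 5.10 for the Reg3 genes. Lcn2, which binds bacterial siderophores, had 2356 and 7498 in libraries 65 and 71 against 241 and 501. Nos2, the inducible nitric oxide synthase, had 6100 and 1724 against 80.1 and 271. Saa3, an acute-phase apolipoprotein, had 4499 and 4243 against 311 and 858. Fut2, a fucosyltransferase of epithelial glycans, had 6721 and 10517 against 2260 and 3053 and did not pass (adjusted p = 0.0564, limma).

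Of these 12 genes 6 are also on the neutrophil list (Lcn2, S100a8, S100a9, Wfdc21, Camp and Ltf). Like Reg3a and Reg3d, Ltf, the iron-binding protein lactoferrin, was far higher in library 71 (1651) than in library 65 (102), with 4.17 and 14.3 in Efhd2f/f. The other 6 (Saa3, Nos2, Slpi, Wfdc17, Fut2 and Hp) summed to 22972 and 21497 in libraries 65 and 71, against 3385 and 5506 in 67 and 68, and 3 of them were higher and 3 lower in library 71. When any of the 4 libraries was left out, no gene of the table was called by limma, with 35 to 81 genes higher and 1 to 7 lower at an unadjusted p under 0.05. Such a fit sets 1 library against 2 and takes the spread from the other genotype alone, so it has little power and says little about these lists.

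On day 0, without DSS, none of the 7 Reg genes and none of the 28 upstream genes was listed, so that no value of a Reg3 gene before DSS was analysed here and no rise from day 0 to day 7 can be given. Of the 33 host defence genes 5 were listed (Saa3, Nos2, Duox2, C3 and Lyz1), and in all 5 the genotypes did not overlap, as in 306 of the 309 listed genes (99.0%). The 5 genes were lower in Efhd2f/f Vil1cre/+, as were 207 of the 306, while 99 were higher. Duox2, which makes hydrogen peroxide at the epithelial surface, had 2902 and 3193 against 6537 and 7655. Saa3 and Nos2 were listed on both days, and the Reg3 genes on day 7 only.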

How the data were processed

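RNA of colonic IECs was sequenced in 8 libraries, 2 for each genotype and day. The authors deposited a table per day, whose signal is a count of reads per gene that they normalized between the libraries of that table, and it lists only genes past their thresholds. The submitters' processing notes name CASAVA 1.8, fastp, HISAT2 2.0.5, featureCounts 1.5.0-p3, DESeq2 1.20.0 and GRCm38 (mm10). Whether counting used strand is not given in the sources used here. Columns that give the authors' test of this contrast (a log2 fold change with p-values) were not used. Whole reads were not recovered, because low values lay near multiples of a step but not on them, so no count test was run and no interval from counting was computed.

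Each column was mapped to a group by its name. Values under 1e-06 were set to 0 (14 on day 7). The genotypes were compared on day 7 by limma 3.58.1 in R 4.3.3 (lmFit, eBayes) on log2(normalized count + 1), and p-values were adjusted by Benjamini-Hochberg across all 128 genes of the table. A gene was called at an adjusted p under 0.05 and an absolute log2 fold change above 1. This scale understates the change of low genes. The variance was estimated from genes selected for a difference, and the calls are a description. The 2 tables were normalized separately and were not compared in level. The limma code was tested on simulated data in which most genes did not differ and changes went equally in both directions. The listed genes are unlike this, so that test does not bear on the calls. Alternatives were pseudocounts of 0.1 and 10, a mean of at least 50, equal sums over the listed genes, no moderation of the variance and each library left out.

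Sequences came from RefSeq windows (GRCm38.p6) and GENCODE M21 transcripts, and all 4 genes matched by symbol. Identity was computed by global alignment in Biopython 1.88, over coding bases, since no protein sequences were used here. The Reg3 genes, the gene lists and the rule for named genes (list members that were listed, the 3 nearest profiles per Reg3 gene, up to 3 genes of a marker list by mean, and genes inside the cluster) were chosen with earlier results of these data known.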

Additional observations from a re-analysis of the deposited data

Results flagged for a closer look

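Nos2 and Saa3, the only host defence genes listed on both days, differed in opposite directions. The genotype means of Nos2 differed 22.3-fold on day 7 (Efhd2f/f Vil1cre/+ over Efhd2f/f), with every Efhd2f/f Vil1cre/+ library above every Efhd2f/f library, and the same ratio was 0.233 on day 0, with every library below. For Saa3 the ratios were 7.48 on day 7 and 0.378 on day 0. The days were normalized separately and the difference between them was not tested. No Reg3 gene was listed on day 0, so the same comparison could not be made for them.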

How the results depend on the processing

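All 4 Reg3 genes stayed higher in Efhd2f/f Vil1cre/+ under every alternative tried. The pseudocount, the mean filter and leaving out a library could not reverse this direction, as the genotypes did not overlap. The same contrast also chose the genes, so their direction is a description only. Scaling to equal sums over the listed genes, a sum of which Reg3b itself is 41.4% and 44.7% in libraries 65 and 71 and 19.0% and 11.1% in 67 and 68, moved the median log2 fold change of all listed genes by -2.41, to 0.13, and gave 1.70 (Reg3a), 1.57 (Reg3b), 2.80 (Reg3d) and 1.78 (Reg3g). Equal sums without the Reg3 genes moved the median by -1.47 and gave 2.51 for Reg3b and 2.73 for Reg3g. Leaving out each library gave 2.42 to 5.70 for Reg3a, 3.65 to 4.33 for Reg3b, 3.25 to 6.95 for Reg3d and 3.86 to 4.56 for Reg3g.

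Of 99 genes higher and 10 lower called by limma, 65 and 6 were called with a mean of at least 50, 5 and 7 with equal sums, where more genes were lower than higher, 6 higher and 6 lower with equal sums without the Reg3 genes, 3 and 0 with no moderation, and 0 in either direction with any library left out, where the lone library is assumed to vary like the other genotype. Calls of host defence genes (11) and upstream signals (4), counted under alternatives chosen after the data were seen, came to 0 with either equal sums, with no moderation and with any library left out. With a mean of at least 50, 2 upstream signals were called. With equal sums, genes without overlap were 33 above and 35 below in place of 116 and 11, and all 4 Reg3 genes were among those above. The share of the Reg3 genes per kb was 63.8% in library 65 and 34.0% in library 67, in place of 55.9% and 25.5%. In libraries 65, 71, 67 and 68 the ratio of Reg3b to Reg3g was 2.88, 2.85, 2.95 and 3.75 without the length and 2.83, 2.81, 2.91 and 3.69 per kb of the main transcript. No paired analysis was possible because the columns carry library numbers that are not replicate numbers. The precision is limited by 2 libraries a genotype and an unknown depth, most of all for Reg3a and Reg3d.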
